A study of Caenorhabditis elegans with 8 samples.

Results

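A set of 7 genes of the worm gut, among the 20541 genes listed in each deposited table, was followed between strains HC125 and N2: elt-2, ges-1, asp-1, cpr-1, cpr-6, ifb-2 and vha-6. They were taken by name, as markers of intestinal identity and digestion, with earlier results of these data known. Counts and medians of the set are therefore descriptions and not tests. All 7 were found in both tables, and all 7 had a completed test in both. The samples were whole young adult Caenorhabditis elegans, brought to the same age by a timed egg lay, and polyadenylated RNA was sequenced. HC125 is read here as the strain with the Psid-1::gfp transgene, in which the sid-1 promoter drives green fluorescent protein, since the series design sets such worms against the wild type and N2 is the wild type. The labels give no further allele for HC125. There were 4 libraries of HC125 and 4 of N2, in 2 experiments with 2 libraries of each strain. One pair of libraries per strain was read from both ends of each fragment, without strand information, and is called the unstranded experiment; the other pair was read from a single end with strand kept, and is called the stranded experiment. The deposited tables hold 1 value per gene, strain and experiment, in FPKM (fragments per kilobase of transcript, set relative to all mapped fragments of the library), so no spread between libraries can be shown and the number of reads behind a value is unknown.

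The intestine of C. elegans is a tube of large polarised cells that digests bacteria, stores fat and, in adult hermaphrodites, makes yolk. Its fate is set in the early embryo by a cascade of GATA-type transcription factors, and ELT-2 takes over at the end of that cascade and keeps gut genes on for life. Food is broken down by proteases and esterases in an acidified lumen, which is lined by microvilli anchored in a sheath of intermediate filaments.

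The strains were checked on sid-1, the gene whose promoter is on the transgene. It was at 2.11 FPKM in HC125 and 31.9 FPKM in N2 in the unstranded experiment, and at 0.818 FPKM in HC125 and 12.9 FPKM in N2 in the stranded experiment. The authors' deposited tables called it in both, with q = 0.0270 and q = 0.0411, where q is their p-value adjusted for all genes tested.

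None of the 7 gut genes was called different between the strains. In the authors' deposited tables a gene counts as called at a q of 0.05 or less, which held for 0.212% of 15114 tested genes in the unstranded and 0.122% of 13150 in the stranded experiment. The smallest p-value of any of the 7 was 0.369 in the unstranded experiment and 0.0649 in the stranded experiment, both for ges-1, so 0 of 7 lay under an unadjusted p of 0.05. Over all tested genes 1.28% and 2.39% did. Most of the 7 gut genes had a slightly lower value in HC125. This held for 7 of 7 in the unstranded experiment, where 58.3% of all tested genes were lower, and for 5 of 7 in the stranded experiment, where 60.0% were lower. The 5 genes that were lower in both experiments were elt-2, ges-1, asp-1, cpr-1 and cpr-6. Of the 12954 genes tested in both, 37.6% were lower in both, and the share was 29.3% among genes with a mean of 100 FPKM or more in each. For elt-2 the stranded value turns higher when the ratios are centred on the median of all tested genes. ifb-2 and vha-6 were lower in HC125 in the first and higher in the second experiment.

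The transcription factor of the group, elt-2 (WBGene00001250), lies on chromosome X from 10481238 to 10483581 on the plus strand and has 9 exons, with coordinates as the tables give them, close to those of WBcel235. It had 9.25 FPKM in HC125 and 11.1 FPKM in N2 in the unstranded experiment. In the stranded experiment it had 8.83 FPKM in HC125 and 8.96 FPKM in N2. HC125 thus held 83.4% and 98.5% of the N2 level. The ratio of FPKM, HC125 over N2, was 0.834 (95% interval 0.390 to 1.78) and 0.985 (0.584 to 1.66), and the authors' deposited p was 0.492 and 0.937. These intervals, here and below, use a standard error derived from the deposited test statistic, called the implied error. It ranked 7880th in HC125 and 7530th in N2 among all genes of the unstranded table.

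ges-1 (WBGene00001578), the gut esterase that has long served as a marker of the intestinal lineage, lies on chromosome V from 1427650 to 1432137 on the minus strand. It had 20.1 FPKM in HC125 and 24.7 FPKM in N2 in the unstranded experiment, and 8.04 FPKM in HC125 and 10.8 FPKM in N2 in the stranded experiment. Of the 7 genes it had the lowest ratio in both, at 0.816 (0.437 to 1.52) and 0.744 (0.488 to 1.13). Only 6.44% of tested genes in the unstranded and 3.89% in the stranded experiment had a lower log2(FPKM + 1) ratio. The authors' deposited q was 1.00 in both.

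asp-1 (WBGene00000214) encodes an aspartyl protease of the cathepsin D kind that is made in the gut, and it was the most abundant of the 7. It lies on chromosome V from 19049123 to 19050825 on the minus strand. In the unstranded experiment it had 990 FPKM in HC125 and 1101 FPKM in N2. In the stranded experiment it had 4268 FPKM in HC125 and 5009 FPKM in N2, where it ranked 28th and 24th among all genes. Genes marked as too deep to test entered these ranks at their listed value. For vit-3, vit-4 and vit-5 that value was 0 FPKM in N2. The ratio was 0.899 (0.351 to 2.30) and 0.852 (0.571 to 1.27), with a deposited p of 0.744 and 0.269. Its values were the least precise of the group in the unstranded experiment, with an implied standard error of 0.69 on the log2 scale.

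Both cathepsin B proteases were lower in HC125 by a similar fraction. cpr-1 (WBGene00000781), a gut cysteine protease, lies on chromosome V from 11975515 to 11976759 on the plus strand and had 271 FPKM in HC125 and 311 FPKM in N2, then 282 FPKM in HC125 and 349 FPKM in N2 in the stranded experiment. Its ratio was 0.872 (0.457 to 1.66) and 0.808 (0.576 to 1.14), with a deposited p of 0.531 and 0.0813. cpr-6 (WBGene00000786), of the same protease family, lies on chromosome X from 6607203 to 6609046 on the plus strand. It had 805 FPKM in HC125 and 970 FPKM in N2, then 1479 FPKM in HC125 and 1662 FPKM in N2. The ratio of cpr-6 was 0.831 (0.424 to 1.63) and 0.890 (0.612 to 1.29), with a deposited p of 0.426 and 0.392. Every interval of the protease genes spans 1.

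The filament and proton pump genes were the pair without a lower value in both experiments. ifb-2 (WBGene00002054) encodes an intermediate filament protein of the sheath under the gut's apical membrane and lies on chromosome II from 5750190 to 5754141 on the plus strand. It had 78.2 FPKM in HC125 and 80.0 FPKM in N2 in the unstranded experiment, and 66.9 FPKM in HC125 and 56.2 FPKM in N2 in the stranded experiment. The ratio was 0.978 (0.570 to 1.68) and 1.19 (0.834 to 1.70), with a deposited p of 0.905 and 0.176. In the stranded experiment 91.4% of tested genes had a lower ratio than ifb-2. vha-6 (WBGene00006915), on chromosome II from 11435211 to 11438464 on the minus strand, encodes the a subunit of the proton pump (V-ATPase) at the apical membrane. It had 159 FPKM in HC125 and 171 FPKM in N2, then 84.4 FPKM in HC125 and 83.4 FPKM in N2. The ratio of vha-6 was 0.935 (0.519 to 1.68) and 1.01 (0.723 to 1.42).

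**Figure D1:**
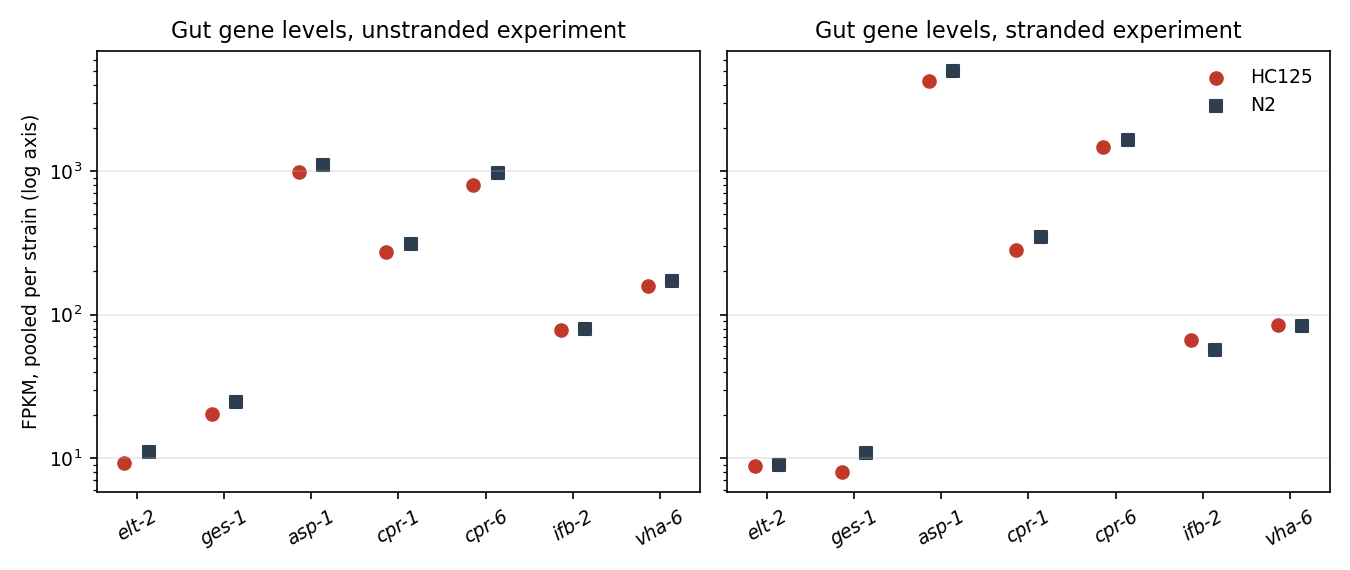
Pooled FPKM of the 7 gut genes on a log axis, with 1 point per strain in each experiment (HC125 circles, N2 squares). The HC125 and N2 points of a gene lie close together, from 9.25 and 11.1 FPKM for elt-2 to 990 and 1101 FPKM for asp-1 in the unstranded panel.

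The order of the 7 levels was the same in both strains of the unstranded experiment: asp-1, cpr-6, cpr-1, vha-6, ifb-2, ges-1 and elt-2, from high to low. In the stranded experiment 5 of the 7 held the same rank in both strains, and ges-1 and elt-2 changed places at the low end. The gap between neighbours was set against the error of the 2 levels, taken from the implied error of the ratio on the assumption that both strains vary alike. In the unstranded experiment asp-1 and cpr-6 did not differ beyond the 95% range of that error in either strain, with a gap of 0.30 in HC125 and 0.18 in N2 on the log2 scale, and neither did cpr-1 and vha-6. In the stranded experiment asp-1 stood above cpr-6 by 1.53 in HC125 and 1.59 in N2 on that scale, beyond the error. There ges-1 and elt-2 could not be ordered in either strain, and vha-6 and ifb-2 could not in HC125, where their gap was 0.33 with an error of 0.25.

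The spread of levels was wider in the stranded experiment. The highest of the 7 stood above the lowest by 107-fold in HC125 and 99.2-fold in N2 in the unstranded experiment, and by 531-fold and 559-fold in the stranded experiment. The level of asp-1 over cpr-6 was 1.23 in HC125 and 1.14 in N2, then 2.89 in HC125 and 3.01 in N2. ges-1 over elt-2 was 2.18 in HC125 and 2.22 in N2 in the unstranded experiment, then 0.911 and 1.20. These level ratios thus differed more between the experiments than between the strains. Kit, read layout and strandedness differ between the experiments, and their part was not tested.

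**Figure D2:**
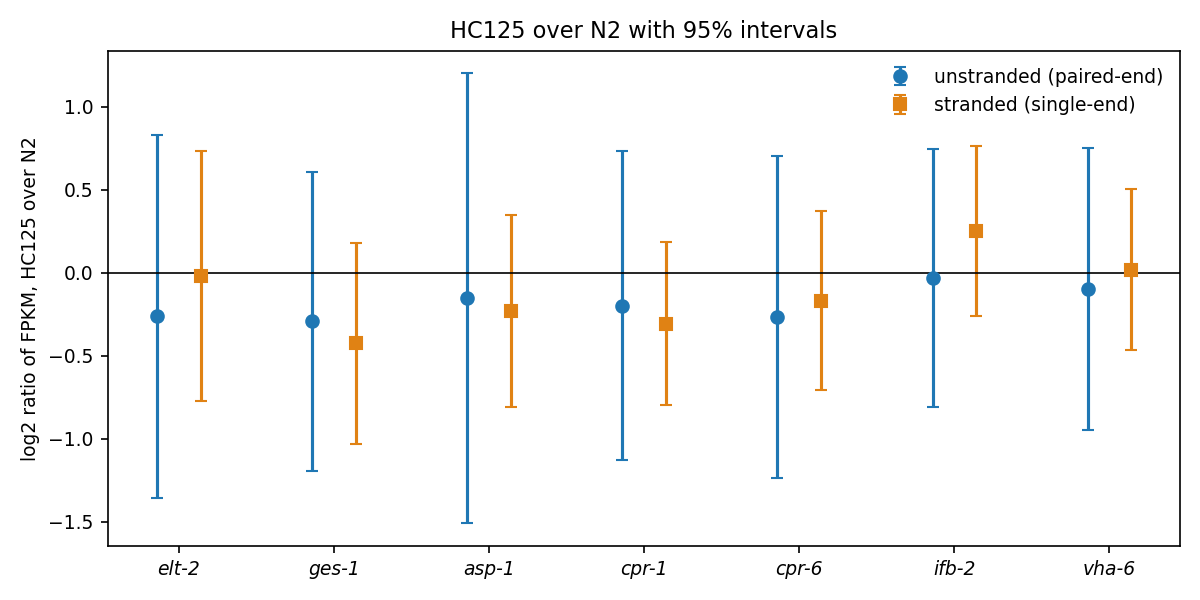
Log2 ratio of FPKM, HC125 over N2, for the 7 gut genes in the unstranded experiment (circles) and the stranded experiment (squares), with 95% intervals from the implied standard errors. Each of the 14 intervals crosses 0, and the stranded intervals are the narrower ones.

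On the log2(FPKM + 1) scale the median ratio of the 7 genes was -0.20 in the unstranded and -0.17 in the stranded experiment. Over all tested genes it was -0.03 and -0.04, and over genes with a mean of 100 FPKM or more it was -0.00 and -0.03. The 7 ratios ranged from -0.28 for ges-1 to -0.03 for ifb-2 in the unstranded experiment, and from -0.38 for ges-1 to 0.25 for ifb-2 in the stranded experiment. Of the genes with a mean of 100 FPKM or more, 50.5% of 1879 had a lower value in HC125 in the unstranded and 60.9% of 1544 in the stranded experiment. The implied standard errors of the 7 genes ran from 0.40 to 0.69 and from 0.25 to 0.38 on the log2 scale, and no error was computed for their median. In whole worms, a smaller share of gut RNA in the total and less of a given RNA within gut cells cannot be told apart.

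The 7 ratios did not separate from one another or between experiments. Of the 21 pairs of these genes in each experiment, the 95% interval of the difference of log2 ratios spanned 0 in 21 of 21 in both. The largest difference in both was ges-1 minus ifb-2, at -0.26 (-1.45 to 0.93) in the unstranded and -0.68 (-1.47 to 0.12) in the stranded experiment. These pair differences use FPKM without a pseudocount. On that scale ges-1 had the lowest difference of stranded minus unstranded log2 ratio, from -0.43 stranded and -0.29 unstranded. On the log2(FPKM + 1) scale that difference ran from -0.11 for cpr-1 to 0.28 for ifb-2. A z test of that difference on the implied errors gave an adjusted p of 1.00 for each of the 7 genes over 12921 genes, and the interval for ifb-2 was -0.65 to 1.21.

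Joining both experiments did not bring any of the 7 past the threshold. With Stouffer's combination of the deposited p-values, ges-1 had a combined p of 0.0523 and an adjusted p of 1.00, and 0 of the 7 genes were called or had a combined p under 0.05. That combination called 0.270% of 12954 genes, and 1.75% had a combined p under 0.05. limma on the 4 pooled values gave ges-1 a log2 ratio of -0.33 (adjusted p = 0.761) and cpr-1 -0.25 (adjusted p = 0.784). Those were the 2 genes of the 7 with an unadjusted limma p under 0.05, at 0.0174 and 0.0412, against 6.26% of all genes. limma called 0 genes in all.

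Other genes with a role in gut identity, digestion, structure, transport or yolk were read from 8 lists, which hold 98 genes, 91 of them outside the 7. The lists were set by role, and expression confined to the gut was not required. None of the listed genes with a completed test was called in either experiment. Over all tested genes 0.212% were called in the unstranded and 0.122% in the stranded experiment. Some listed genes had no test, among them 6 of the 19 aspartyl proteases in the unstranded and 7 in the stranded experiment. In the aspartyl protease list, 10 of 13 tested genes were lower in HC125 in the unstranded experiment and 12 of 12 in the stranded experiment, with median log2(FPKM + 1) ratios of -0.11 and -0.19. Of the 12 tested in both, 10 were lower in both. Without asp-1 the counts were 9 of 12 and 11 of 11. Lower values were found for 58.3% of all tested genes in the unstranded and 60.0% in the stranded experiment. Among genes tested in both, 37.6% were lower in both. The same shares are the background for the counts of the lists below. asp-6 was at 528 FPKM in HC125 and 568 FPKM in N2, then at 1763 FPKM in HC125 and 2246 FPKM in N2. asp-3 was at 590 FPKM in HC125 and 659 FPKM in N2, then at 1042 FPKM in HC125 and 1130 FPKM in N2. Other genes of this family were hardly present: 7 of the 19 listed were under 1 FPKM in both strains of each experiment. asp-1 made up 28.8% of the summed FPKM of the list in HC125 and 28.6% in N2 in the unstranded experiment, and 48.4% in HC125 and 48.2% in N2 in the stranded experiment.

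Of the cysteine cathepsins, 5 of 10 tested genes were lower in HC125 in the unstranded experiment, with a median of -0.04, and 10 of 10 in the stranded experiment, with a median of -0.20. Of the 10 tested in both, 5 were lower in both. Without cpr-1 and cpr-6 the counts were 3 of 8 and 8 of 8, with medians of 0.06 and -0.20. The difference between the experiments was not tested for the list. cpl-1, the cathepsin L of the worm, was at 1058 FPKM in HC125 and 1251 FPKM in N2, then at 3377 FPKM in HC125 and 3852 FPKM in N2. cpr-9, listed in the tables under its sequence name F57F5.1, was higher in HC125 in the unstranded experiment, at 1110 FPKM in HC125 and 987 FPKM in N2, and was at 1123 FPKM in HC125 and 1243 FPKM in N2 in the stranded experiment. cpr-4 and cpr-5 were likewise higher in the first and lower in the second experiment, with ratios of 1.20 and 0.815 for cpr-4 and 1.07 and 0.869 for cpr-5 (both chosen after their values were seen). None of these cathepsins had a deposited p under 0.05.

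The proton pump and the brush border had medians close to 0. Of the V-ATPase subunit genes, 11 of 21 tested were lower in HC125 in the unstranded and 8 of 20 in the stranded experiment, with medians of -0.01 and 0.01 and a range of -0.10 to 0.10 in the unstranded one. vha-2, a c subunit, was at 635 FPKM in HC125 and 639 FPKM in N2, then at 1349 FPKM in HC125 and 1271 FPKM in N2. vha-10, the G subunit, was at 530 FPKM in HC125 and 503 FPKM in N2, then at 647 FPKM in HC125 and 553 FPKM in N2. vha-9, the F subunit, was at 346 FPKM in HC125 and 330 FPKM in N2, then at 644 FPKM in HC125 and 637 FPKM in N2. The worm has 4 genes for the a subunit, and vha-6 was the most abundant of them: it held 36.5% of their summed FPKM in HC125 and 38.2% in N2, then 45.7% in HC125 and 45.7% in N2. unc-32 came next with 25.5% in HC125 and 25.3% in N2, then 23.8% and 24.0%.

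Of the 13 brush border and terminal web genes, 9 were lower in HC125 in the unstranded and 5 in the stranded experiment, with medians of -0.03 and 0.02. act-5, the actin of the microvilli, was at 467 FPKM in HC125 and 459 FPKM in N2, then at 487 FPKM in HC125 and 489 FPKM in N2. erm-1, which links actin to the apical membrane, was at 196 FPKM in HC125 and 189 FPKM in N2, then at 108 FPKM in HC125 and 106 FPKM in N2. plst-1, a plastin that bundles actin, was at 138 FPKM in HC125 and 144 FPKM in N2, then at 37.6 FPKM in HC125 and 45.0 FPKM in N2. Among the 6 gut intermediate filament genes, ifb-2 held 35.2% of the summed FPKM in HC125 and 35.0% in N2, then 43.2% in HC125 and 40.4% in N2. ifc-2 was its nearest neighbour in level, with 36.6% in HC125 and 35.7% in N2, then 29.8% and 29.4%.

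**Figure D3:**
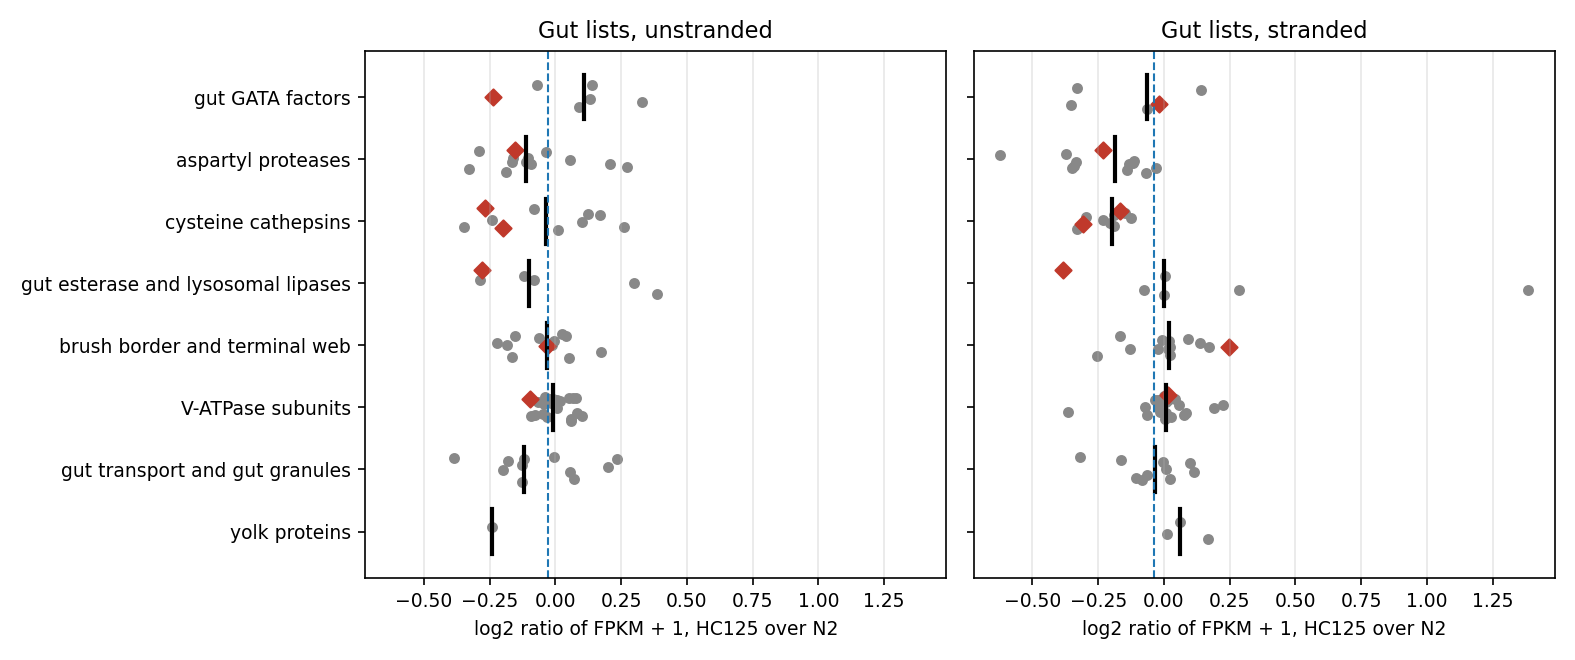
Log2 ratio of FPKM + 1, HC125 over N2, of every tested gene of the 8 gut lists in each experiment. Diamonds are the 7 gut genes, grey points the other genes, black bars list medians and the dashed line the median of all tested genes. In the stranded panel the protease lists lie to the left of 0, with medians of -0.19 and -0.20, while V-ATPase subunits centre at 0.01. In the unstranded panel the medians of aspartyl proteases, cysteine cathepsins and V-ATPase subunits are -0.11, -0.04 and -0.01.

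Gut transcription factors other than elt-2 showed no common direction. elt-7, a GATA factor that acts beside ELT-2, was at 7.49 FPKM in HC125 and 7.91 FPKM in N2, then at 2.57 FPKM in HC125 and 2.24 FPKM in N2. pqm-1, a zinc finger factor of the adult gut, was at 15.3 FPKM in HC125 and 13.9 FPKM in N2, then at 6.74 FPKM in HC125 and 7.08 FPKM in N2. With elt-2, the list had 2 of 6 tested genes lower in the unstranded and 4 of 5 in the stranded experiment. Of the 8 listed genes, 4 were under 1 FPKM in both strains in each experiment: the embryonic factors med-1, med-2 and end-3 in both, with end-1 in the unstranded and elt-4 in the stranded one (named after their values were seen). elt-2 was above elt-7 by a factor of 1.24 in HC125 and 1.40 in N2, then 3.44 in HC125 and 4.00 in N2.

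Of the esterase and lysosomal lipase genes, 4 of 6 tested were lower in HC125 in the unstranded and 3 of 6 in the stranded experiment, ges-1 included. lipl-5 was at 202 FPKM in HC125 and 220 FPKM in N2, then at 322 FPKM in HC125 and 339 FPKM in N2. lipl-7 was at 21.1 FPKM in HC125 and 22.4 FPKM in N2, then at 14.6 FPKM in HC125 and 14.5 FPKM in N2. lipl-1, a lipase known for its induction in fasting, stood apart in the stranded experiment at 2.72 FPKM in HC125 and 0.423 FPKM in N2. The authors' deposited p for lipl-1 was 0.00015 there, the smallest in the gut lists, with a q of 0.110. In the unstranded experiment lipl-1 was at 26.2 FPKM in HC125 and 21.1 FPKM in N2. Besides lipl-1, asp-5 and vha-3 were the genes of the gut lists with an unadjusted p under the 0.05 threshold in the authors' deposited tables, both in the stranded experiment. asp-5 was at 563 FPKM in HC125 and 729 FPKM in N2 (p = 0.0330), and vha-3 at 20.2 FPKM in HC125 and 26.3 FPKM in N2 (p = 0.0303). In the unstranded experiment asp-5 was at 243 FPKM in HC125 and 249 FPKM in N2, and vha-3 at 213 FPKM in HC125 and 223 FPKM in N2. lipl-1, asp-5 and vha-3 were chosen after their values were seen. vha-3 and vha-2 encode near-identical c subunits, so the split of reads between them is uncertain.

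Transporters and gut granule genes had medians of -0.12 and -0.03, with 7 of 11 and 6 of 10 tested genes lower in HC125. pept-1, the peptide transporter of the apical membrane, was at 77.9 FPKM in HC125 and 78.2 FPKM in N2, and at 43.0 FPKM in HC125 and 48.9 FPKM in N2 in the stranded experiment, where its test was marked as failed. apb-3, an adaptor subunit for gut granules, was at 60.9 FPKM in HC125 and 66.3 FPKM in N2, then at 33.1 FPKM in HC125 and 35.7 FPKM in N2. nhx-2, a sodium and proton exchanger, was at 54.3 FPKM in HC125 and 51.7 FPKM in N2, then at 23.6 FPKM in HC125 and 23.7 FPKM in N2. The yolk genes, made in the gut, could be read only in part. vit-1 was at 1572 FPKM in HC125 and 1859 FPKM in N2, then at 1298 FPKM in HC125 and 1286 FPKM in N2, with a deposited p of 0.854 and 0.965. vit-2 and vit-6 had a test only in the stranded experiment, at 3476 FPKM in HC125 and 3099 FPKM in N2 for vit-2, and at 3650 FPKM in HC125 and 3501 FPKM in N2 for vit-6. The other yolk values were marked as too deep to test.

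Markers of other tissues also differed in value between the strains, and in the unstranded experiment the medians of the pharynx and hypodermis markers lay farther from 0 than that of the 7 gut genes. As background, 58.3% of all tested genes were lower in HC125 and 0.212% were called in the unstranded experiment. In the stranded experiment 60.0% were lower and 0.122% were called. Of the tested pharynx markers, 10 of 11 were lower in HC125 in the unstranded experiment, with a median of -0.70, and 2, myo-1 and myo-2, were called lower. Their summed level was 88.8 FPKM in HC125 and 170 FPKM in N2, and in the stranded experiment 85.3 FPKM in HC125 and 91.1 FPKM in N2, with 7 of 11 lower. Body wall muscle markers were lower in 11 of 12 in the unstranded experiment (median -0.16; summed level 3205 FPKM in HC125 and 3527 FPKM in N2) and in 1 of 12 in the stranded experiment (median 0.17; 3228 FPKM in HC125 and 2751 FPKM in N2), where unc-54 was called higher. In the stranded experiment unc-54 had the highest log2(FPKM + 1) ratio of the muscle list, 1.44. At 341 FPKM in HC125 and 125 FPKM in N2, it accounts for much of the rise in the summed level. Hypodermis markers had medians of 0.81 and -0.09, with 2 of 12 and 6 of 10 lower and dpy-13 called higher in the unstranded experiment, and a summed level of 1465 FPKM in HC125 and 1479 FPKM in N2, then 1429 FPKM in HC125 and 1654 FPKM in N2. col-19 alone held 90.2% of the summed FPKM of that list in HC125 and 92.3% in N2, then 94.0% and 94.3%. Several of its genes were under 1 FPKM in N2 in the unstranded experiment, such as rol-6 at 0.123 FPKM and dpy-13 at 0.646 FPKM. There col-19, elt-3 and lin-26 had log2(FPKM + 1) ratios of -0.05, 0.10 and -0.10. Germline markers were lower in 7 of 12 and 10 of 12 (medians -0.04 and -0.10; 2613 FPKM in HC125 and 2700 FPKM in N2, then 2038 FPKM in HC125 and 2142 FPKM in N2). Neuron markers were lower in 10 of 12 and 6 of 11 (medians -0.04 and -0.02; 329 FPKM in HC125 and 343 FPKM in N2, then 188 FPKM in HC125 and 172 FPKM in N2). Of these 60 markers, 1 was listed at 0 in any strain and experiment, phat-1 of the pharynx. The part of these tissues in the gut values was not tested.

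**Figure D4:**
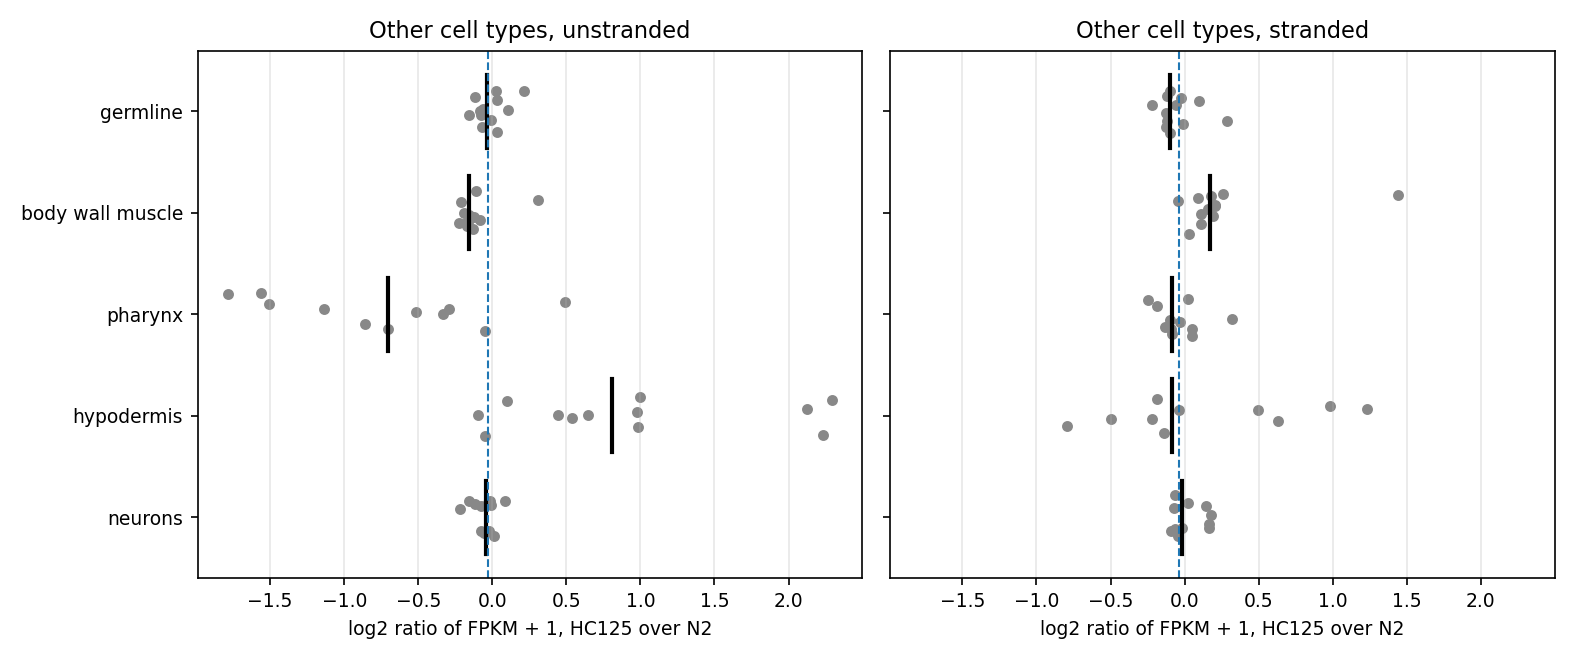
Log2 ratio of FPKM + 1, HC125 over N2, of the tested markers of 5 other cell types in each experiment, with black bars for list medians and the dashed line for the median of all tested genes. In the unstranded panel the pharynx median lies at -0.70 and the hypodermis median at 0.81, and in the stranded panel both lie at -0.09.

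The 7 gut genes are spread over chromosomes II, V and X. ges-1, cpr-1 and asp-1 are on chromosome V, which also carries sid-1, at distances of 3.69, 6.85 and 13.9 Mb from it. elt-2 and cpr-6 are on X, and ifb-2 and vha-6 on II. In the WBcel235 annotation 0 of the 7 overlap another gene. The deposited gene spans behind the FPKM values differ from that annotation by up to 439 bases and were not checked for overlap. The part of reads from an antisense partner in these values was thus not tested. By Euclidean distance over the 4 pooled log2(FPKM + 1) values, the gene nearest to vha-6 was ptc-1 (distance 0.08), that nearest to ifb-2 was Y54E10BR.3 (0.13) and that nearest to elt-2 was toca-1 (0.13). acs-19 was nearest to cpr-1 (0.18), F22D6.9 to ges-1 (0.19), rpl-18 to asp-1 (0.21) and emo-1 to cpr-6 (0.32). These distances mostly follow the level, and 264 genes lay within 0.5 of ifb-2 but 2 within 0.5 of asp-1.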

How the data were processed

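Polyadenylated RNA of whole worms was sequenced in 2 experiments. TopHat2 2.0.1 and Cufflinks 2.2.1 are the tools listed, per the submitters' processing notes, with order, settings, build and annotation not given in the sources used here. FPKM was computed by the authors, 1 value per strain and table, pooled over 2 libraries. The tables also hold a test statistic, which is a score, with a p-value and a q-value, as deposited by the authors. No label says that replicates were separate cultures, so the deposited p-values cannot be taken to measure the spread between cultures. The model of spread behind them is not given in the sources used here. The limma p-values rest on 4 pooled values per gene. They measure how closely the ratios of the 2 experiments match, with variance shared across genes, and not the spread between libraries.

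The table starts count from 0 and are printed plus 1: 2515 of 20194 matched genes then have the exact WBcel235 start and end, against 93 without. The 7 starts and ends differ from that annotation by up to 439 bases, so gene lengths behind FPKM may differ too.

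Genes marked failed (2 in the unstranded and 13 in the stranded table), too deep (5 and 3) or too low (5420 and 7375) were left out of the counts of lower or called genes and of the medians. They stayed in the ranks and in the list shares at their listed values. The standard error of a log2 ratio is the ratio divided by the deposited statistic. For the 7 genes it is wider than the deposited p-values imply, in 14 of 14 values. List ratios use a pseudocount of 1 FPKM, which understates low genes. Python 3.11.15, scipy 1.17.1 and limma 3.58.1 were used. Combining and difference steps were checked on simulated data. Of the listed names, 4 were not found, 2 of which are older names of pept-1. Besides the 7 genes and sid-1, the rule names list genes called in either table, the 3 of highest mean FPKM per gut list and the nearest gene by level. The genes and lists were chosen with earlier results of these data known.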

Additional observations from a re-analysis of the deposited data

How the results depend on the processing

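No paired analysis was possible because each table holds 1 pooled value per strain, so replicate numbers cannot enter a fit, and for the same reason no library could be left out. limma had the experiment as a term, which sets the strains against each other within an experiment but pairs no libraries. The number of the 7 gut genes called stayed at 0 under a stricter or looser q, a filter at 1 FPKM, the normal p of the test statistic, Stouffer's combination and limma. Their median log2 ratio lay between -0.22 and -0.15 in the unstranded experiment, and between -0.20 and -0.09 in the stranded one, over other pseudocounts, centring, the filter and leaving out each of the 7 genes. Centring put elt-2 above 0 in the stranded experiment, at 0.02 on all tested genes and 0.01 on abundant ones, so 4 of 7 genes were then lower. It also left 3 of 13 brush border genes lower there under both centrings, and 3 of 20 V-ATPase genes on all tested genes or 4 of 20 on abundant ones. With a mean of 1 FPKM or more, 2 of 3 gut transcription factors were lower there. The share of genes lower in HC125 at means of 1, 10 and 100 FPKM or more was 60.5%, 64% and 50.5% in the unstranded experiment, and 61.6%, 63.5% and 60.9% in the stranded one. The planned comparison of genes with and without a GATA motif in the promoter was not run, since promoter sequence was not used here. The depth behind these FPKM values is unknown, and with 14 of 14 intervals of the 7 genes spanning 1, shifts of the size seen were not detectable gene by gene.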
